A study of Mus musculus with 35 samples.

Results

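Arntl, Clock, Npas2, Bhlhe40, Bhlhe41 and Ciart encode the activators of the circadian clock and 3 proteins that hold them back, and their RNA was followed in mouse lung. The 6 genes were chosen by symbol, and they are 6 of the 22211 genes of the deposited expression table. All 6 passed the filter on low values, as did 16786 genes in all. The study measured RNA of the left lung lobe in 35 male mice, between 7 and 9 weeks old and of the C57BL/6 strain per the series title. Control mice (genotype WT) received control IgG at 3 µg per g body weight, and antibody-depleted mice (WT) received anti-Ly6G (clone 1A8) at 3 µg per g, which binds a surface protein of neutrophils. DT mice (genotype MRP8-Cre;iDTR-flox) received DT (diphtheria toxin) at 10 ng per g, which kills cells that carry the toxin receptor. That receptor is switched on by a Cre driven by the MRP8 promoter, which is active in neutrophils and in some other myeloid cells. All injections were given under the skin of the neck on 2 consecutive days, and perfused lobes were frozen on the third day at one clock hour.

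ZT4 (4 h after lights on, in the rest phase of mice) and ZT16 (16 h after lights on, in the active phase) were reached by keeping ZT16 mice in cabinets with inverted light, so time and housing cannot be told apart. Control and anti-Ly6G mice numbered 7 per time, of which 3 belonged to a July batch and 4 to one of September. DT mice numbered 4 at ZT4 and 3 at ZT16, all of an April batch without control mice, so toxin, genotype and batch cannot be told apart. Libraries are named by group, batch and order in the table (ZT4_control Jul#2). A level below is the deposited normalised expression value, and a change is ZT16 minus ZT4 on the log2(value + 0.5) scale ± SE with a p from limma, adjusted over all genes tested. The alveolar type 2 marker Sftpc lay between 13780 and 19990 in every library. The summed neutrophil markers had medians of 61.6 and 54.0 in control mice, 38.7 and 27.9 in anti-Ly6G mice and 35.5 and 36.4 in DT mice (ZT4 and ZT16), with 1 library far above its group, ZT4_control Sep#2, at 731. In whole lung, fewer cells of a type and less RNA per cell cannot be told apart for any gene below.

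BMAL1, the product of Arntl, pairs with CLOCK or with the related protein NPAS2, and the pair activates genes that carry the E-box CACGTG. Among those genes are the Per and Cry repressors, which inhibit the pair, and Nr1d1 and Nr1d2, whose REV-ERB products repress Arntl and Npas2 at ROR elements. DEC1 (Bhlhe40) and DEC2 (Bhlhe41) are repressors that occupy E-boxes, and CHRONO (Ciart) binds the activator complex and represses it. In mouse lung, BMAL1 of airway club cells is known to shape the daily rhythm of neutrophil recruitment.

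Promoter sequence shows which of the inhibitor genes carry the E-box next to their start. RefSeq windows (GRCm38.p6, 250 bases before to 50 after a start site) were found for 5 of the 6 genes, all but Bhlhe40. The 2 stretches below are upstream of the exons, 5′ to 3′ on the strand of the gene, with every CACGTG in capitals. The first is chr3:95882252-95882478 (minus strand) and the second chr6:145865559-145865670 (minus strand).
Ciart: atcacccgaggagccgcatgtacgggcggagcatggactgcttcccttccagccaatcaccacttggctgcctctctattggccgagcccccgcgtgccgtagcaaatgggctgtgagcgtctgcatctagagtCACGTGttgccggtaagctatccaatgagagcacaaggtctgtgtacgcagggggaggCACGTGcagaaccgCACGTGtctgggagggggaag
Bhlhe41: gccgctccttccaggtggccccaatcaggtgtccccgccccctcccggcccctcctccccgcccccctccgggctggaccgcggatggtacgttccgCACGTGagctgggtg

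Ciart held 3 E-boxes, at positions -116 to -111, -58 to -53 and -44 to -39 from its start site. Of 32851 windows of the same length, 7.15% held the E-box at least once and 0.0883% (29 windows) held it 3 or more times. Bhlhe41 held 1 E-box, at -153 to -148. The windows of Arntl, Clock and Npas2 held no CACGTG. The half-site AGGTCA, read on both strands and bound by REV-ERB and ROR proteins, was found in 16.3% of windows, among them 1 of Arntl and 1 of Clock. The Arntl match lay 31 to 36 bases after the start site at 113207511, shown here in capitals within chr7:113207530-113207559 (plus strand).
Arntl: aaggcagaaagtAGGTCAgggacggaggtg

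The related E′-box CACGTT (4.68% of windows), the D-box TTATGTAA or TTACGTAA (1.06%) and the cAMP element TGACGTCA (1.79%) were found in no window of these genes. These matches describe the letters of the windows and do not show binding.

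In the GRCm38 annotation, Arntl (ENSMUSG00000055116) lies at chr7:113207465-113314126 on the plus strand and Clock (ENSMUSG00000029238) at chr5:76209868-76304792 on the minus strand. Npas2 (ENSMUSG00000026077) lies at chr1:39193731-39363236, plus, and Bhlhe40 (ENSMUSG00000030103) at chr6:108660629-108666925, plus. Bhlhe41 (ENSMUSG00000030256) lies at chr6:145858243-145865558, minus, and Ciart (ENSMUSG00000038550) at chr3:95878503-95882251, minus. For Bhlhe41, 1280 of 6720 exon bases overlap Gm43909 on the opposite strand, so its values are uncertain unless counting used strand, on which the sources used here say nothing. Overlap of this kind is 118 bases for Bhlhe40 and 33 for Arntl, each with an antisense gene, and 0 for Clock, Npas2 and Ciart.

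**Figure D1:**
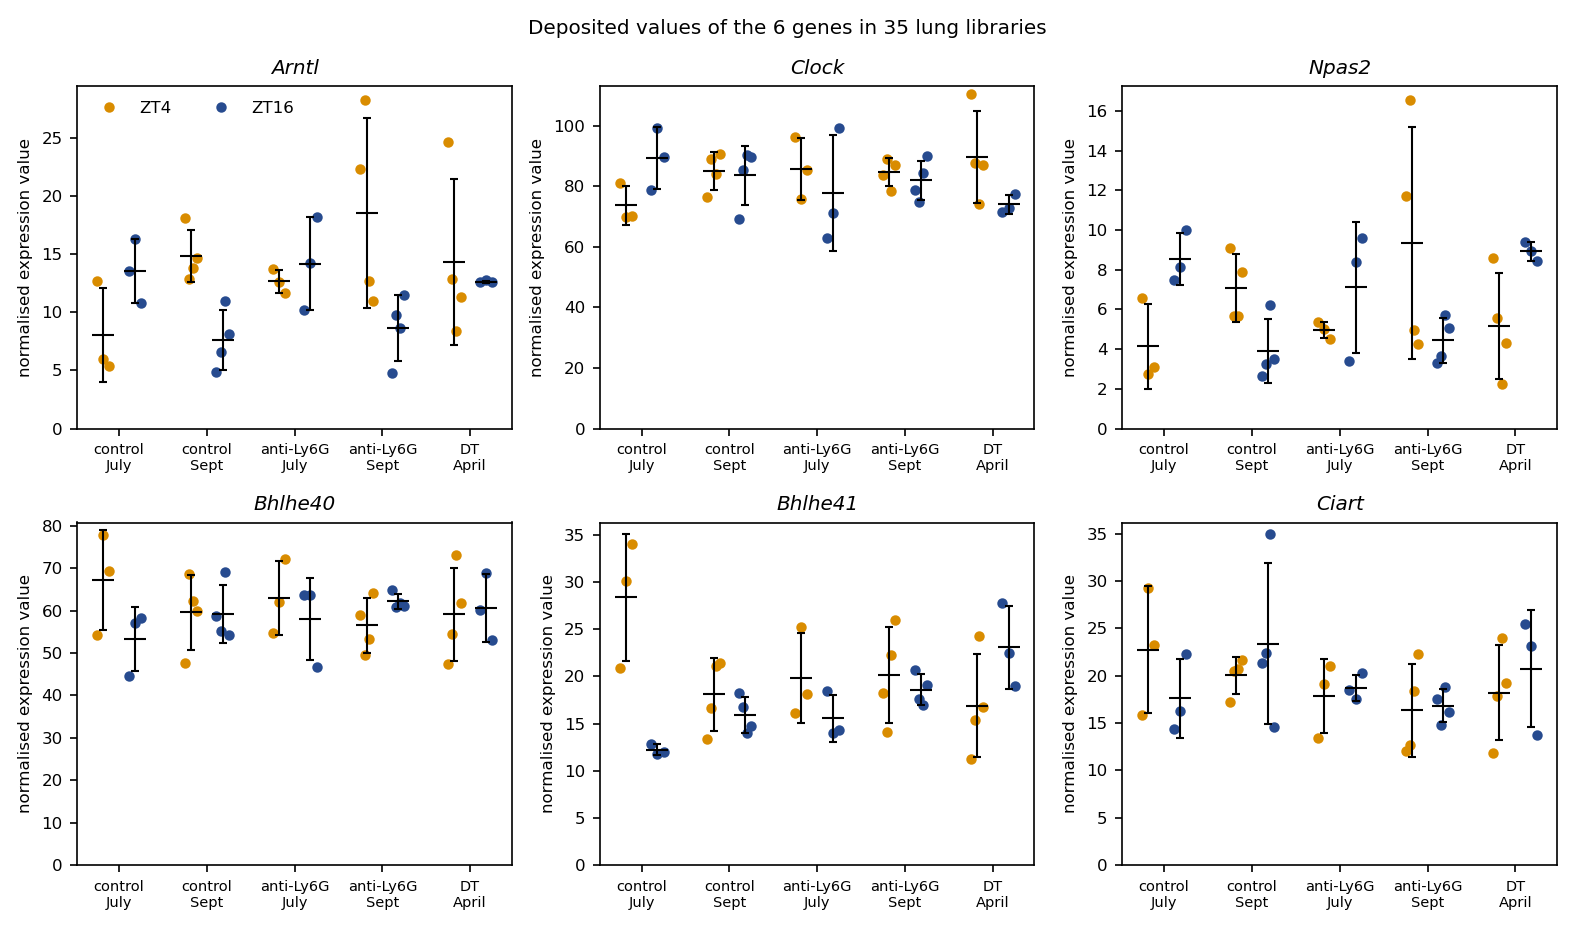
Deposited normalised expression value (vertical axis, linear from 0) of each gene in each of the 35 libraries, by treatment and batch (horizontal axis), with ZT4 in orange and ZT16 in blue; bars are mean ± SD of the 3 or 4 libraries. Arntl and Npas2 stood higher at ZT4 in September (Arntl means 14.8 and 18.5) than at ZT16 (7.61 and 8.63), and Bhlhe41 was highest in ZT4_control July (28.4).

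Arntl fell from ZT4 to ZT16 in the September mice, whereas its July means had the opposite order and did not pass the test. In September control mice the levels at ZT4 were 18.04, 12.9, 13.8 and 14.6, and at ZT16 they were 4.82, 6.57, 10.9 and 8.12. In September anti-Ly6G mice they were 22.3, 28.2, 12.6 and 10.9 at ZT4, and 4.74, 9.72, 8.62 and 11.5 at ZT16. The control ranges did not overlap, whereas 1 anti-Ly6G library of ZT4 lay below 1 of ZT16. Over both treatments the September mean was 16.7 ± 5.90 at ZT4 and 8.12 ± 2.58 at ZT16 (SD, n = 8 each). The change was -0.99 ± 0.21 (adjusted p = 0.00121), a level 1.99-fold lower at ZT16.

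In July control mice Arntl was at 12.7, 5.97 and 5.39 at ZT4 and at 13.5, 16.3 and 10.8 at ZT16. In July anti-Ly6G mice it was at 13.7, 12.6 and 11.7 at ZT4 and at 10.2, 14.2 and 18.2 at ZT16. The order of the means was thus opposite to September, with 2 control libraries of ZT4 (ZT4_control Jul#2 and Jul#3) far below the remaining July libraries. Over both treatments the July mean was 10.3 ± 3.66 at ZT4 and 13.8 ± 3.09 at ZT16 (n = 6 each), and the change of 0.46 ± 0.24 did not pass the test (adjusted p = 0.202).

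The opposite orders of Arntl by batch were known from earlier results of these data, so a test of them is no independent finding. The test of the batch difference itself, September minus July time change over both treatments, gave -1.45 ± 0.32 for Arntl, with an adjusted p of 0.0671. By p this ranked 20 of 16786 genes, of which 12 were called. None of the 6 genes was called, at a background of 0.0715% of genes, and 4 had an unadjusted p under 0.05 in limma. For Arntl, leaving out any 1 of 7 libraries brought the adjusted p to between 0.0251 and 0.0455. Those libraries were ZT4_antiLy6G Sep#4, ZT16_antiLy6G Sep#4, ZT16_control Sep#3, ZT4_control Jul#1, ZT16_antiLy6G Jul#1, ZT16_antiLy6G Jul#3 and ZT4_DT Apr#1. The last is no part of this comparison, and leaving it out kept the estimate at -1.45. Leaving out any other of the 35 libraries did not bring a pass, for example ZT4_control Sep#2 (adjusted p = 0.0815). Within control mice the batch difference was -1.76 ± 0.45 (adjusted p = 0.257), and within anti-Ly6G mice it was -1.14 ± 0.45 (adjusted p = 0.49). There 0 of the 6 genes were called in either treatment (backgrounds 0% and 0.00596%), and 3 and 2 had an unadjusted p under 0.05 in limma.

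Taking the batches as 1 set, Arntl changed by -0.21 ± 0.28 in control mice (adjusted p = 0.716) and by -0.53 ± 0.28 in anti-Ly6G mice (adjusted p = 0.184). Neither passed the test. These pooled values average over opposite orders in the 2 batches. Within one treatment and batch, Arntl passed the test in September anti-Ly6G mice (-1.02 ± 0.30, adjusted p = 0.0264). That call was lost without ZT4_antiLy6G Sep#1 (adjusted p = 0.0963), ZT4_antiLy6G Sep#2 (0.135), ZT16_antiLy6G Sep#1 (0.143) or ZT16_antiLy6G Sep#3 (0.0504). In September control mice the change was -0.96 ± 0.30 with an adjusted p of 0.0635.

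Of the 6 genes, 1 was called in September anti-Ly6G mice (9.73% of all genes were) and 0 in September control mice (3.78%; 2 had an unadjusted p under 0.05 in limma). Over both treatments in September, 2 of the 6 were called, Arntl and Npas2, both lower at ZT16, where 19.7% of all genes were called.

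Npas2, which can stand in for CLOCK in the activator pair, followed the same order as Arntl within the July and September batches. In September control mice it was at 9.12, 5.65, 5.66 and 7.88 at ZT4 and at 2.65, 3.26, 6.24 and 3.48 at ZT16. In September anti-Ly6G mice it was at 11.7, 16.5, 4.94 and 4.28 at ZT4 and at 3.32, 3.68, 5.73 and 5.07 at ZT16. The ranges overlapped in both treatments, and the highest values were the ZT4_antiLy6G libraries Sep#1 and Sep#2, which also had the highest Arntl of their group.

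Over both treatments, September Npas2 fell from 8.22 ± 4.17 to 4.18 ± 1.31 (SD, n = 8 each), a change of -0.82 ± 0.25 (adjusted p = 0.0183). Without ZT4_antiLy6G Sep#2 the change was -0.65 with an adjusted p of 0.0581. In July control mice Npas2 was at 6.59, 2.74 and 3.09 at ZT4 and at 7.49, 8.12 and 10.0 at ZT16, which do not overlap. In July anti-Ly6G mice it was at 5.37, 4.99 and 4.52 at ZT4 and at 3.38, 8.37 and 9.61 at ZT16, where 1 library lay below all of ZT4.

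The July Npas2 means over both treatments were 4.55 ± 1.44 and 7.83 ± 2.38 (n = 6 each), and the change of 0.71 ± 0.28 missed the threshold (adjusted p = 0.0903). It passed without ZT4_control Jul#1 (0.88, adjusted p = 0.0457) or without ZT16_antiLy6G Jul#1 (0.92, adjusted p = 0.0285). The batch difference of the Npas2 time change was -1.53 ± 0.38 (adjusted p = 0.0993, rank 53 of 16786). Leaving out ZT4_antiLy6G Sep#4 or ZT16_antiLy6G Jul#1 brought the adjusted p to 0.0422 and 0.0433, and leaving out any other single library did not bring a pass. Pooled over batches, Npas2 changed by -0.02 ± 0.31 in control mice (adjusted p = 0.982) and by -0.31 ± 0.31 in anti-Ly6G mice (adjusted p = 0.529).

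**Figure D2:**
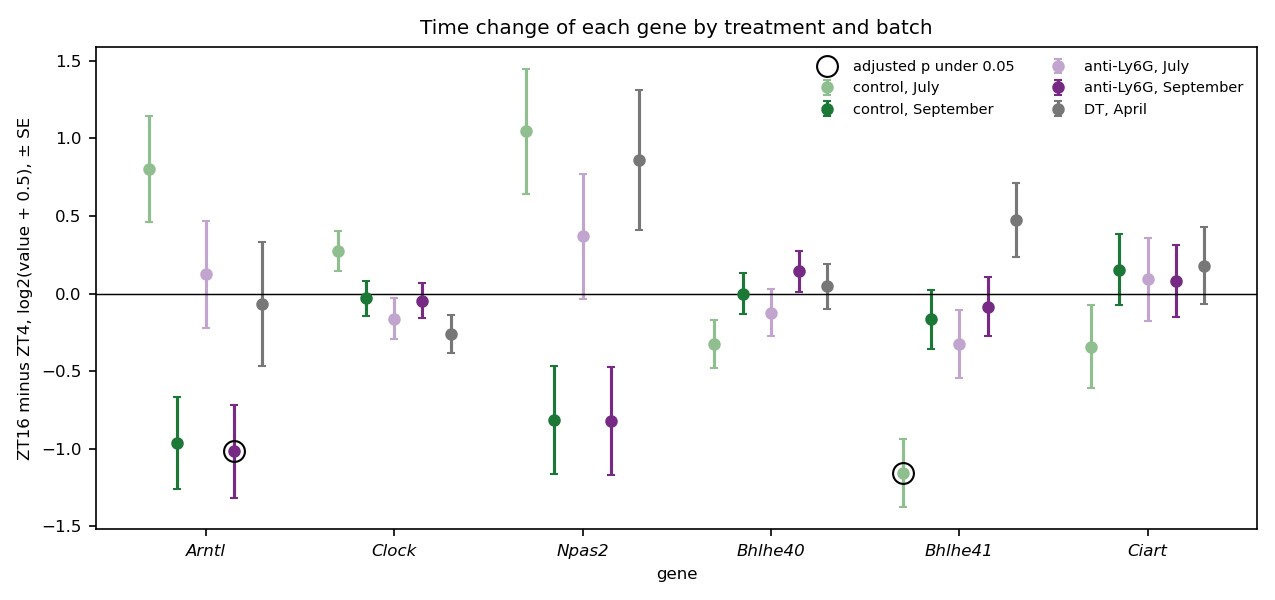
Time change of each gene (ZT16 minus ZT4, log2(value + 0.5), ± SE; horizontal axis, gene) in the 5 combinations of treatment and batch, with rings around adjusted p under 0.05. Arntl and Npas2 lay above 0 in July and below 0 in September, while Bhlhe41 was lowest in July control mice (-1.16).

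Clock, the partner of BMAL1 and a histone acetyltransferase, had a narrower range than Arntl and Npas2. Its level ranged from 62.8 to 110.4 over the 35 libraries, a 1.76-fold range against 5.95-fold for Arntl and 7.41-fold for Npas2. Bhlhe40 had a similar range (1.75-fold). The SD of log2 Clock levels within group and batch, 0.172, was near the median of all genes tested, 0.168. Control means were 80.1 ± 8.43 at ZT4 and 86.0 ± 9.61 at ZT16, and anti-Ly6G means were 85.0 ± 6.73 and 80.1 ± 12.2 (SD, n = 7 each). The changes of 0.10 ± 0.09 (adjusted p = 0.525) and -0.10 ± 0.09 (adjusted p = 0.473) did not pass. In DT mice Clock was at 110.4, 87.5, 73.9 and 87.0 at ZT4 and at 71.6, 72.8 and 77.5 at ZT16. 1 library of ZT4 lay within the ZT16 range, and the change of -0.26 ± 0.12 did not pass (adjusted p = 0.148).

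Clock was called in 0 of 17 comparisons by limma, with 3 at an unadjusted p under 0.05. Its DT minus control difference in time change was -0.36 ± 0.15 (adjusted p = 0.101). Without ZT4_DT Apr#3, the lowest ZT4 library, that difference was -0.45 and passed (adjusted p = 0.0447).

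Bhlhe41, which encodes the E-box repressor DEC2, was the 1 member called for time in control mice over both batches. It was lower at ZT16, an order known from earlier results of these data. In July control mice it was at 20.9, 30.1 and 34.1 at ZT4 and at 12.9, 11.7 and 12.0 at ZT16. Every ZT4 library lay above every ZT16 library, and the change was -1.16 ± 0.22 (adjusted p = 0.00255), a level 2.23-fold lower at ZT16. In September control mice it was at 13.3, 16.6, 21.1 and 21.4 at ZT4 and at 18.2, 16.7, 14.0 and 14.7 at ZT16, which overlap, and the change was -0.17 ± 0.19 (adjusted p = 0.7).

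Of the 6 genes, 1 was called in July control mice (2.95% of all genes were called) and 1 in control mice over both batches (9.04%), Bhlhe41 each time. The pooled control means were 22.5 ± 7.26 and 14.3 ± 2.43 (SD, n = 7 each), a change of -0.59 ± 0.17 (adjusted p = 0.0208). That call was lost without ZT4_control Jul#2 (-0.51, adjusted p = 0.0557), without ZT4_control Jul#3 (-0.48, 0.0609) and with September libraries alone (-0.17, 0.632). The batch difference in control mice, 0.99 ± 0.29, did not pass (adjusted p = 0.363), nor did that over both treatments (0.62 ± 0.21, adjusted p = 0.206).

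In July anti-Ly6G mice Bhlhe41 was at 16.2, 25.2 and 18.1 at ZT4 and at 18.4, 14.0 and 14.3 at ZT16. In September anti-Ly6G mice it was at 18.3, 14.2, 22.3 and 26.0 at ZT4 and at 20.7, 17.6, 16.9 and 19.1 at ZT16. The ranges overlapped in both batches, and the pooled change was -0.19 ± 0.17 (adjusted p = 0.462). Of the 6 genes, 0 were called in anti-Ly6G mice over both batches (20.9% of all genes; 0 of the 6 at an unadjusted p under 0.05 in limma) and 0 in July anti-Ly6G mice (8.33%; also 0).

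Over both treatments, July Bhlhe41 went from 24.1 ± 7.01 to 13.9 ± 2.45 (n = 6 each; -0.74 ± 0.16, adjusted p = 0.00138), the single call among the 6 genes there (15.2% of all genes). In September it was at 19.2 ± 4.33 and 17.3 ± 2.21 (n = 8 each; -0.12 ± 0.14, adjusted p = 0.56).

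In DT mice Bhlhe41 had the opposite order to control mice. Its levels were 11.2, 15.3, 24.2 and 16.8 at ZT4 and 27.8, 22.4 and 19.0 at ZT16. The ranges overlapped through ZT4_DT Apr#3, and the change of 0.47 ± 0.24 did not pass (adjusted p = 0.176). The DT minus control difference in time change was 1.06 ± 0.29 (adjusted p = 0.0144), the single call among the 6 genes in that comparison, where 13.8% of all genes were called. The call was lost without ZT4_DT Apr#1 (0.89, adjusted p = 0.0559) or without ZT16_DT Apr#1 (0.92, 0.0594). Against anti-Ly6G mice the difference was 0.66 ± 0.29 (adjusted p = 0.104), which passed without ZT4_DT Apr#3 (0.85, adjusted p = 0.0373). There 0 of the 6 genes were called (19.1% of all genes; 2 of the 6 at an unadjusted p under 0.05 in limma).

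Summed values of the ciliated cell markers Foxj1 and Tppp3 had lower means at ZT16 in control and anti-Ly6G mice and a higher one in DT mice. Of all cell type marker sums examined, this one had the highest Pearson's r with Bhlhe41 over the 35 libraries (0.59). The sum was 563 ± 51.7 at ZT4 and 485 ± 29.9 at ZT16 in July control mice (n = 3 each), 536 ± 38.6 and 494 ± 34.6 in September control mice (n = 4 each), and 470 ± 60.9 (n = 4) and 586 ± 76.2 (n = 3) in DT mice. In anti-Ly6G mice the sum went from 560 ± 40.4 to 483 ± 31.6 in July (n = 3 each) and from 548 ± 67.6 to 492 ± 25.4 in September (n = 4 each). In DT mice the ciliated sums overlapped between times (387.5 to 526.4 at ZT4, 507.5 to 659.7 at ZT16). Of the other marker sums examined, 3 did not overlap, and the share of all genes without overlap was not computed. Airway club markers summed to between 24840 and 32230 at ZT4 and between 36820 and 45550 at ZT16, endothelial markers to 1982 to 2341 and 1331 to 1569, and natural killer cell markers to 10.4 to 13.7 and 5.63 to 9.95. Lower medians at ZT16 in control and anti-Ly6G mice were also seen for other sums, such as B cell markers (66.2 to 37.1 and 83.5 to 33.7). The alveolar type 2 and alveolar macrophage sums had higher medians at ZT16 in both treatments. The part of any of these markers in the Bhlhe41 result or in any other DT time change was not tested. Without ZT4_control Sep#2, the library with high neutrophil markers, Bhlhe41 still passed in control mice (-0.65, adjusted p = 0.0129) and in the DT minus control difference (1.13, adjusted p = 0.0108). Without the same library, Arntl (-1.02, adjusted p = 0.00163) and Npas2 (-0.86, adjusted p = 0.0182) still passed in September over both treatments.

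Bhlhe40, which encodes DEC1, showed no called change in 17 comparisons (limma; 3 with an unadjusted p under 0.05). Its lowest and highest levels over the 35 libraries were 44.5 and 77.8, and the control means were 62.8 ± 10.1 at ZT4 and 56.7 ± 7.28 at ZT16 (SD, n = 7 each). In July control mice it was at 54.4, 77.8 and 69.4 at ZT4 and at 44.5, 57.0 and 58.3 at ZT16, a change of -0.33 ± 0.15 (adjusted p = 0.277). In September control mice the means were 59.6 ± 8.83 and 59.3 ± 6.83 (n = 4 each). Anti-Ly6G means were 59.3 ± 7.64 and 60.4 ± 6.18 (n = 7 each), and DT means were 59.2 ± 10.95 (n = 4) and 60.7 ± 7.97 (n = 3).

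Ciart, the E-box-bearing gene of CHRONO printed above, also showed no called change in 17 comparisons (limma; 0 with an unadjusted p under 0.05). Control means were 21.2 ± 4.38 at ZT4 and 20.9 ± 7.17 at ZT16, and anti-Ly6G means were 17.0 ± 4.22 and 17.7 ± 1.79 (SD, n = 7 each). In DT mice it was at 11.8, 17.9, 23.9 and 19.2 at ZT4 and at 25.4, 23.1 and 13.7 at ZT16. The ranges overlapped, and the change was 0.18 ± 0.25 (adjusted p = 0.675). The highest single level, 35.02, was in ZT16_control Sep#3, and the remaining libraries of that group and batch were at 21.4, 22.5 and 14.6.

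In DT mice, 0 of the 6 genes were called for time (15.3% of all genes; 1 of the 6, Clock, at an unadjusted p under 0.05 in limma). Arntl in these mice was at 24.7, 12.9, 8.39 and 11.3 at ZT4 and at 12.6, 12.7 and 12.5 at ZT16. The ZT4 values were widely spread around 3 nearly equal ZT16 values, and the change was -0.07 ± 0.40 (adjusted p = 0.934). Npas2 was at 8.57, 5.57, 2.23 and 4.32 at ZT4 and at 9.40, 8.95 and 8.44 at ZT16, with 1 ZT4 library inside the ZT16 range. Its change of 0.86 ± 0.45 did not pass (adjusted p = 0.195).

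Neutrophil depletion with anti-Ly6G was followed by no called difference in these genes. At ZT4, at ZT16 and for the difference in time change between anti-Ly6G and control mice, limma called 0 of the 6 genes and 0% of all genes, and 0 of the 6 had an unadjusted p under 0.05 in any of the 3. The ZT4 differences, anti-Ly6G minus control, were 0.43 ± 0.28 for Arntl, 0.26 ± 0.31 for Npas2 and 0.09 ± 0.09 for Clock. For the inhibitors they were -0.33 ± 0.17 for Ciart, -0.13 ± 0.17 for Bhlhe41 and -0.08 ± 0.10 for Bhlhe40. At ZT16 the differences ran from -0.18 ± 0.17 (Ciart) to 0.27 ± 0.17 (Bhlhe41). The adjusted p-values of the 6 genes over these comparisons lay between 0.715 and 0.996, and these errors leave room for differences of the sizes printed.

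The 10 means of group and batch were sorted by size, which places means close to their neighbours for any gene. The overlaps below only describe the order, and their share over all genes was not computed. Arntl was highest in ZT4_antiLy6G September (18.5 ± 8.18), followed by ZT4_control September (14.8 ± 2.26), and lowest in ZT16_control September (7.61 ± 2.60). Of its 9 pairs of neighbours in that order, 8 had overlapping ranges, and the gap lay between ZT16_DT (12.6 ± 0.0981) and ZT16_antiLy6G September (8.63 ± 2.85). Bhlhe41 also had 8 overlapping pairs of 9, with the gap between ZT16_antiLy6G July (15.6 ± 2.50) and ZT16_control July (12.2 ± 0.590). For Clock, Npas2, Bhlhe40 and Ciart all 9 pairs overlapped.

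Within group and batch, Arntl and Npas2 differed more between mice than most lung genes. The SD of log2 levels within group and batch was 0.461 for Arntl and 0.539 for Npas2, at the 95.9th and 97.4th percentile of the 16786 genes, whose median was 0.168. It was 0.357 for Ciart (87.5th percentile), 0.293 for Bhlhe41 (77.1), 0.202 for Bhlhe40 (60.0) and 0.172 for Clock (51.1). Npas2 (mean 6.31) and Arntl (mean 12.5) also had the lowest values of the 6 in this table, and the part of a low level in their spread was not tested.

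That spread was shared between genes. Arntl and Npas2 levels (log2) rose and fell together over the 35 libraries, with Pearson's r = 0.84 and Spearman's rho = 0.79. The two-sided permutation p was 1e-05 for both, the smallest that 100000 permutations can give, and 0.00015 after Benjamini-Hochberg adjustment over the 15 pairs of members. Leaving out the 2 libraries farthest from the Arntl median (ZT16_antiLy6G Sep#1 and ZT16_control Sep#1) gave r = 0.83. Within batches r was 0.80 in July (n = 12), 0.93 in September (n = 16) and 0.65 in April (n = 7). For deviations of each library from the mean of its group and batch r was 0.87. The permutations shuffled libraries freely over groups, times and batches. Differences between group or batch means therefore enter every permutation p given here and below. The r within batches and of deviations was not tested. All values come from 1 table and share its normalisation.

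**Figure D3:**
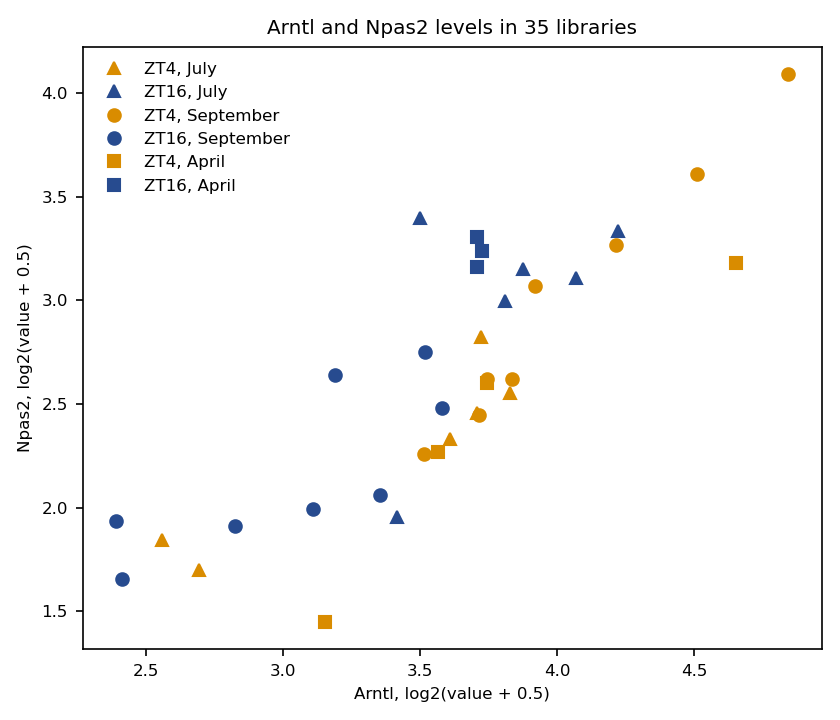
Npas2 (vertical axis) against Arntl (horizontal axis), both log2(value + 0.5), 1 point per library, with colour for time and shape for batch. The points rise together (r = 0.84), and ZT16 libraries tend to lie above ZT4 libraries of the same Arntl level.

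The ratio of Npas2 to Arntl was 0.441 ± 0.0846 in the 18 ZT4 libraries and 0.576 ± 0.149 in the 17 ZT16 libraries, with ranges of 0.266 to 0.586 and 0.333 to 0.928. In DT mice the ranges, 0.266 to 0.432 at ZT4 and 0.673 to 0.749 at ZT16, did not overlap. In September the means were 0.474 ± 0.0748 and 0.529 ± 0.114 (n = 8 each), and in July 0.455 ± 0.0773 and 0.572 ± 0.196 (n = 6 each). This ratio was chosen after its values were seen and was not tested.

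The inhibitors ran against Arntl. Over the 35 libraries r with Arntl was -0.52 for Bhlhe40 (rho = -0.50; permutation p adjusted 0.0035 and 0.00834), -0.50 for Ciart (rho = -0.47; 0.00467 and 0.00883) and -0.47 for Bhlhe41 (rho = -0.41; 0.00712 and 0.0219). Without the 2 libraries farthest from the Arntl median these were -0.57, -0.56 and -0.52. Within July, September and April, r was -0.71, -0.35 and -0.81 for Bhlhe40, -0.69, -0.37 and -0.73 for Ciart, and -0.79, -0.20 and -0.74 for Bhlhe41. The values were nearest to 0 in September, a difference between batches that was not tested. For deviations from group and batch means, r with Arntl was -0.54 for Bhlhe40, -0.50 for Ciart and -0.77 for Bhlhe41.

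Within times of day, r of Arntl with Ciart was -0.85 in the 18 ZT4 libraries and -0.07 in the 17 ZT16 libraries, and with Bhlhe41 it was -0.82 and -0.29. The difference between times was not tested. Clock rose with Arntl (r = 0.49, rho = 0.42; permutation p adjusted 0.00467 and 0.0198). The inhibitors rose with each other, with r = 0.64 for Bhlhe40 and Ciart (rho = 0.64, permutation p adjusted 0.000225 and 3e-04) and 0.59 for Bhlhe40 and Bhlhe41 (rho = 0.53; 0.00095 and 0.00465). Of the 15 pairs, Clock and Ciart had an adjusted permutation p over the threshold for both measures (r = -0.30, 0.0788), and Npas2 and Ciart for rho (-0.32, 0.0632).

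**Figure D4:**
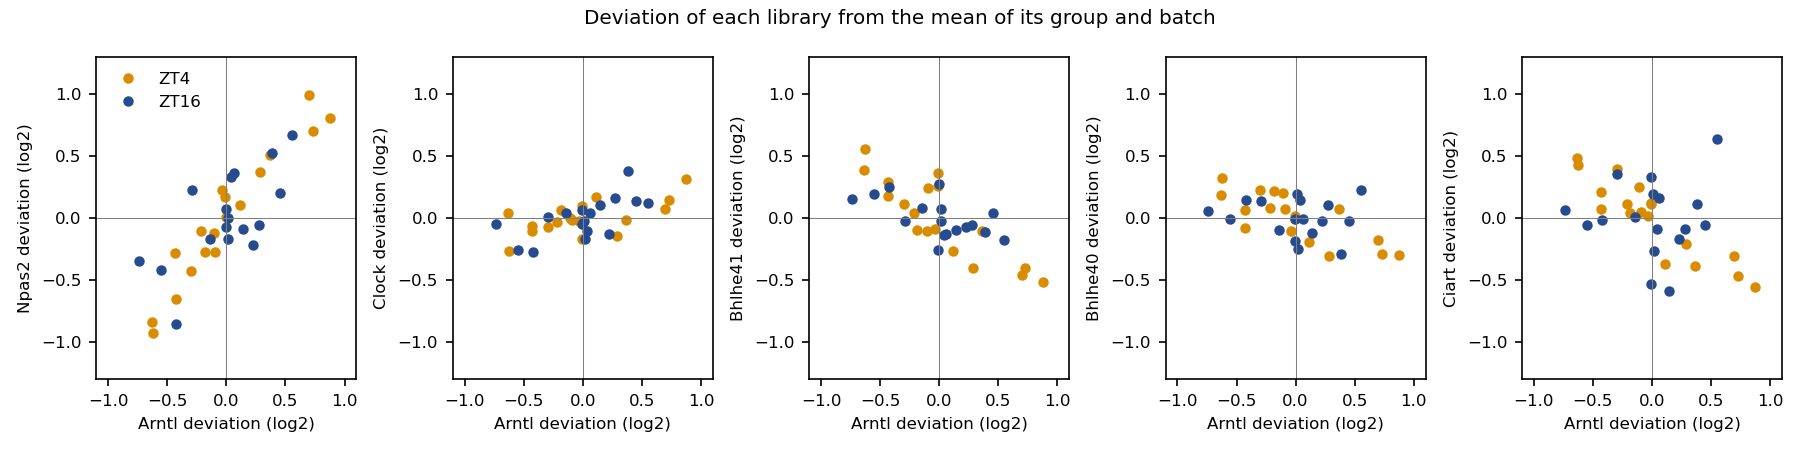
Deviation of each library from the mean of its group and batch (log2), for Npas2, Clock, Bhlhe41, Bhlhe40 and Ciart (vertical axes) against Arntl (horizontal axes), with ZT4 in orange and ZT16 in blue. Npas2 rises with Arntl (r = 0.87) and Bhlhe41 falls with it (r = -0.77) among mice of the same group and batch.

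Other genes with patterns like those of the members were found by Pearson's r of log2 levels over the 35 libraries, as a description. Closest to Arntl were Npas2, Itga7 (an integrin subunit, 0.82), Gjb2 (a gap junction protein, 0.76), Leo1 (0.71) and Dcdc2a (0.68), and most opposite were Tspan4 (-0.84), Per3 (a period gene, -0.82) and Tef (a PAR bZIP factor, -0.79). Npas2 was also closest to Arntl, then to Itga7 (0.83), Dtx4 (0.77), Nupr1 (0.71) and Gdpd2 (0.71), and most opposite to Ilk (-0.71), Myadm (-0.70) and Tmem163 (-0.70). Itga7 was among the 12 genes called for the batch difference in time change (-0.55 ± 0.09, adjusted p = 0.00986), in the same direction as Arntl and Npas2. Gdpd2 was also among them (-1.001 ± 0.21, adjusted p = 0.0493). Both genes were picked for levels like those of Arntl or Npas2 over the same libraries. Their shared direction is therefore no independent result.

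Bhlhe41 was closest to Dbp (a PAR bZIP factor, 0.80), Nr1d2 (0.78), Srsf3 (0.70), Rbm3 (a cold-inducible RNA-binding protein, 0.69) and Mfsd10 (0.68), and most opposite to Ahcyl2 (-0.71), Nfil3 (a repressor of D-box genes, -0.70) and Kctd3 (-0.69). Ciart was closest to Dlgap4 (0.70) and most opposite to Fzd6 (-0.70), and Bhlhe40 was closest to Ciart (0.64), then Klf10 (0.63), and most opposite to BC037032 (-0.68). Clock was closest to 4932438A13Rik (0.79), Dram2 (0.76) and Jmjd1c (0.75), and most opposite to Mapk11 (-0.69). Of the 8 genes this rule gives for each member, Spearman's rho gave again 6 for Arntl, 3 for Clock, 5 for Npas2, 4 for Bhlhe40, 7 for Bhlhe41 and 2 for Ciart. With deviations from group and batch means, the numbers given again were 6, 2, 3, 1, 2 and 1 in the same order, so most neighbours of members other than Arntl were not given again by that measure.

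E-box targets ran against Arntl within groups. Of 15 listed targets, 15 had a negative r with Arntl in deviations from group and batch means, with a median of -0.62 against 0.01 over all genes, and 14 had a negative r over the undivided levels. The lowest were Tspan4 (-0.86), Per3 (-0.85), Tef (-0.84) and Dbp (-0.81), followed by Nr1d2 (-0.77), Hlf (-0.77) and Nr1d1 (-0.67). For Nr1d1 the r over undivided levels was 0.01. The list was written with earlier results of these data known, and Tspan4 was also the gene most opposite to Arntl above. Counts from this list, here and below, are therefore no independent result.

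Some of the same targets changed with time. Of the 15, 6 rose and 2 fell in control mice (median 0.30, all genes -0.00184), where 9.04% of all genes were called. In anti-Ly6G mice 11 rose and 2 fell (median 0.55, all genes -0.0155; 20.9% of all genes called). In DT mice 4 rose and 0 fell (median 0.35, all genes -0.00902; 15.3% called). In control mice Cry1 rose by 1.51 ± 0.08 (adjusted p = 2.21e-15), while Nr1d1 (-3.40 ± 0.31, 1.16e-09) and Dbp (-2.19 ± 0.37, 0.000135) fell. For the batch difference 1 of the 15 was called (0.0715% of all genes), Nr1d2, at 1.07 ± 0.21 (adjusted p = 0.0246), a sign opposite to the values of Arntl and Npas2.

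Of 21 genes for partners and modifiers of CLOCK, such as kinases, acetyltransferases and ubiquitin ligase subunits, 0 were called for time in control mice (limma; 4 with an unadjusted p under 0.05; 9.04% of all genes called). In anti-Ly6G mice 4 rose and 2 fell, a share near that of all genes (20.9%), among them the kinase gene Csnk1e (0.26 ± 0.05, adjusted p = 0.000124), the corepressor Ncor1 (0.25 ± 0.06, 0.00305), the acetyltransferase Ep300 (0.29 ± 0.07, 0.00405) and Cipc, a CLOCK inhibitor (0.27 ± 0.08, 0.0185). In DT mice 0 rose and 2 fell, a share not above that of all genes (15.3%), Kdm5a (-0.28 ± 0.08, adjusted p = 0.0129) and Kmt2a (-0.28 ± 0.08, 0.0171), which modify histone H3. The medians of the list were 0.00422, 0.0325 and -0.0566 in control, anti-Ly6G and DT mice. For the batch difference 0 were called, where 0.0715% of all genes were (limma, 3 with an unadjusted p under 0.05).

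Of the 7 genes of the ROR element list, which holds genes repressed or activated there and their regulators, 6 were tested, and some of these, such as Cry1, Nr1d1 and Nr1d2, are also in the E-box list. In control mice 4 rose and 1 fell (9.04% of all genes were called), and in anti-Ly6G mice also 4 rose and 1 fell (20.9%). Rora rose by 0.37 ± 0.08 (adjusted p = 0.00409) and Nfil3 by 0.70 ± 0.20 (0.0223) in control mice. In DT mice 2 rose and 0 fell (15.3% of all genes called), with Cry1 at 1.203 ± 0.12 (adjusted p = 3.21e-08), and Nr1d1 was at -0.51 ± 0.44 (adjusted p = 0.473).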

How the data were processed

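RNA of 35 mouse lungs (7 mice in each control and anti-Ly6G group, 4 and 3 in the DT groups) was amplified with a single-cell kit before library preparation, per the labels' protocols. Per the submitters' processing notes, the tools were kallisto 0.43.1, RSEM 1.2.20, CASAVA 1.8.2 and cutadapt, with GRCm38 as build, and no role or order is stated. The deposited table holds 1 normalised expression value per gene and library, treated here as a signal (at or above 0). The values were not whole numbers, and 0 of them were 0. Library sums ran from 962600 to 1034000, so the values were not plain CPM, but the sums do not settle their unit. The normalisation and any batch adjustment are not given in the sources used here, so DT levels were not tested against other batches. If values were aligned between batches, the standard errors and p-values may be too small. Read depth is unknown, and no counting interval is given. Levels of different genes were not compared per length.

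Table columns name a group and batch but no sample of the labels. The name of ZT16_DT Apr#2, 1 of only 3 ZT16 DT libraries, has a form of its own and was mapped by its prefix alone. Without it, no member's call changed, and Bhlhe41 in DT minus control was at 1.07 (limma adjusted p = 0.0331). Libraries were treated as separate mice, and p-values measure the spread between these libraries. Genes at 1 or more in at least 3 libraries were kept (16786 of 22211). limma 3.58.1 in R 4.3.3, with the trend option, was fitted to log2(value + 0.5) of all libraries. The 8 comparisons over batches used 6 group means and a September against July term, and the 9 within or between batches used 10 means of group and batch. Residual degrees of freedom were 28 and 25. P-values are two-sided and Benjamini-Hochberg adjusted over the 16786 genes, and 0.05 was the threshold. This scale understates changes of low genes. The fit was tested on simulated data.

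Named are the 6 genes, up to 4 genes of smallest p per list (1 listed gene counts in its lists but is not reported here), and per member the 5 most and 3 least alike genes by Pearson's r, of which the text gives a part for Clock, Bhlhe40 and Ciart. Members and lists were chosen with earlier results of these data known, and the orders of Arntl by batch and of Bhlhe41 in control mice were among those results. Promoter windows are from RefSeq and gene positions from GENCODE.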

Additional observations from a re-analysis of the deposited data

Results flagged for a closer look

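Bhlhe40 in the library ZT16_antiLy6G Jul#3 was at 46.8, whereas the remaining 6 libraries of its group lay between 60.9 and 64.8. On the log2(value + 0.5) scale the gap was 0.811 of the whole range of the group, above the critical share for 7 samples. Chance flags about 1 in 20 groups, and 54 groups of values were examined. The same library had the highest Arntl (18.2), Clock (99.2) and Npas2 (9.61) levels of the 7.

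The Bhlhe41 time change differed between DT and control mice, by 1.06344 (log2, limma adjusted p = 0.0144). The level was lower at ZT16 in control mice (14.3 ± 2.43 against 22.5 ± 7.26, n = 7 each) and the DT means were 23.1 ± 4.40 at ZT16 (n = 3) and 16.9 ± 5.43 at ZT4 (n = 4). Toxin, genotype and batch cannot be told apart here.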

How the results depend on the processing

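No value of the 6 genes past the threshold changed sign under any alternative run. Over the results of single genes, 4479 values kept direction and side of the threshold, 21 newly passed, 10 no longer passed, and 74 moved otherwise. Other pseudocounts, filters and scalings, no trend, robust fitting and no batch term changed no count of called members by over 1.5 times. The numbers of the 6 genes called did move with the libraries used. In control mice over time, 1 was called, against 0 with September libraries alone and 0 to 1 when leaving out single libraries. In anti-Ly6G mice 0 were called, against 1 with September libraries alone (Arntl, -1.02, adjusted p = 0.0311). With only the groups compared in the fit, 2 were called in July control mice (the second Npas2, adjusted p = 0.0303) and 1 in September control mice (Arntl, 0.0329). When single libraries were left out, the number called ran from 0 to 2 for DT minus control, 0 to 1 for DT minus anti-Ly6G, 0 to 1 for September control mice, 0 to 2 for September anti-Ly6G mice, 1 to 2 for July over both treatments, 1 to 2 for September over both, and 0 to 2 for September minus July over both. The cause was not tested.

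Over all genes, the called number for time was 1517 in control mice (318 with July alone, 504 with September alone) and 3514 in anti-Ly6G mice (801 and 1487), with fewer samples in each. In DT mice it was 2565, and 1190 without ZT4_DT Apr#1. For DT minus control it was 2314, and 1164 without the same library. For DT minus anti-Ly6G it was 3202, and 2122 without it. Within batches the numbers ran from 218 to 556 around 495 (July control), 309 to 711 around 634 (September control), 449 to 1975 around 1398 (July anti-Ly6G) and 777 to 1918 around 1633 (September anti-Ly6G). For September minus July over both treatments they ran from 3 to 209 around 12, with 209 when ZT16_antiLy6G Jul#3 was left out, and for anti-Ly6G mice alone from 0 to 220 around 1, with 220 without the same library. No paired analysis was possible because the table columns carry no replicate number of the labels. Depth is unknown, so the precision of the low values of Npas2 and Arntl cannot be given.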

Other observations

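Relatives of the 6 genes were listed by family. Of the 15 listed bHLH-PAS genes, the family of CLOCK, NPAS2 and BMAL1, 11 passed the filter. In control mice, where 9.04% of all genes were called, 2 rose from ZT4 to ZT16 and 0 fell, Epas1 (the hypoxia factor HIF2A, 0.27 ± 0.07, limma adjusted p = 0.0082) and Arnt (its partner, 0.15 ± 0.04, 0.0276). In anti-Ly6G mice 4 rose and 1 fell (20.9% of all genes called). Epas1 rose by 0.49 ± 0.07 (adjusted p = 2.07e-06), Arnt by 0.21 ± 0.04 (0.000808) and Hif3a by 1.14 ± 0.40 (0.0408), and Arnt2 fell (-0.43 ± 0.16, 0.0476). In DT mice 0 rose and 3 fell (15.3% of all genes called), the coactivator Ncoa2 (-0.25 ± 0.07, 0.0171), Hif1a (-0.26 ± 0.08, 0.0326) and Ncoa3 (-0.27 ± 0.09, 0.0386). The medians of the list were 0.11, 0.08 and -0.15 in control, anti-Ly6G and DT mice. For the batch difference 0 were called, where 0.0715% of all genes were (limma, 2 with an unadjusted p under 0.05).

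Of the 10 listed bHLH-Orange genes, the family of DEC1 and DEC2, 7 were in the table and tested. In control mice 1 rose and 1 fell (9.04% of all genes were called), and in anti-Ly6G mice also 1 rose and 1 fell (20.9%). In DT mice 1 rose and 0 fell (15.3%). Heyl, a Notch target, rose in control mice (0.34 ± 0.08, adjusted p = 0.00342) and in anti-Ly6G mice (0.34 ± 0.08, 0.00162). Hes1, another Notch target, fell in control mice (-0.34 ± 0.11, 0.0484) and rose in DT mice (0.62 ± 0.16, 0.00897), while Hes2 fell in anti-Ly6G mice (-0.47 ± 0.16, 0.0316). The remaining members did not pass in these 3 comparisons. For the batch difference 0 were called, where 0.0715% of all genes were (limma, 0 with an unadjusted p under 0.05).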
